A study of Mus musculus with 6 samples.

Results

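Collagen mRNA was examined in luminal progenitor cells sorted from the mammary gland of Robo1+/+ and Robo1-/- mice. The collagen genes were taken as every row of the expression table whose symbol is Col, a number, a and a number, which gave 40 of 18537 gene clusters. By the kind of assembly their chains form, 10 were placed in a fibrillar group, 10 in a basement membrane group and 20 in a group of other collagens. The last group holds the fibril-associated, short-chain network, beaded filament and transmembrane types.

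Collagens are trimers of alpha chains that are secreted and assembled outside the cell. Fibrillar types I, III and V make up the fibers of the stroma and are known mainly as products of fibroblasts, and types II and XI are known from cartilage. Type IV collagen forms the network of the basement membrane, on which mammary epithelium rests, and epithelial, myoepithelial and endothelial cells can all make it. Fibril-associated collagens such as types IX, XII, XIV and XVI coat fibrils or sit near basement membranes, and type VIII is a short-chain network collagen best known from blood vessel walls and the cornea.

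The cells were female adult nulliparous mammary cells of the Lin-CD24loCD29+CD61+ gate, and the animals were 10 to 12 weeks old. Both genotypes were littermates from crosses of Robo1+/- parents. Each genotype had 3 libraries, here called gh03, gh09 and gh15 for Robo1+/+ (wild type) and gh06, gh12 and gh18 for Robo1-/- (knockout), with values always given in that order, and each library pooled cells of 2 animals. The Robo1-/- animals carried the Robo1tm1Matl allele on both chromosomes in every tissue, so that epithelium and stroma lacked an intact gene alike.

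A value below is a normalized read count, the reads of a gene divided by 1 size factor for its library, and 1 read was worth between 0.7838 and 1.4592 of these units. The libraries held between 9727191 and 17433868 reads. Robo1 checks the labels: its values were 289, 574 and 541 in wild type against 130, 214 and 177 in the knockouts, with no overlap. All 10 luminal progenitor markers listed were read in every library, among them Kit, Elf5 and Krt8, and so were 9 of 10 mature luminal markers. Library gh18 stood apart: over 12453 genes, its difference from the rest was lower the more GC a transcript held, with a Spearman rho of -0.81. Log2 fold changes of collagens and the medians of their groups are given below, in text or figure, with and without gh18. Sums, ranges and the medians of other gene lists include gh18.

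Collagens took a small share of the mRNA. They made up 0.081, 0.123 and 0.113% of the reads in the Robo1+/+ libraries and 0.105, 0.128 and 0.05% in the Robo1-/- libraries, lowest in gh18. Of the 40 genes, 28 had at least 3 reads in every library, and 12 fell under 3 reads in at least 1 library. The summed collagen value was 41.0% ± 3.69 (SD, n = 6) basement membrane, 50.9% ± 5.07 other and 8.07% ± 1.90 fibrillar collagen. Longer transcripts yield more reads, so levels of different genes are compared per kb of the longest coding transcript. On that scale the basement membrane group held 34.9% ± 4.04, the other group 58.8% ± 5.22 and the fibrillar group 6.33% ± 1.52 of the collagen level.

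**Figure D1:**
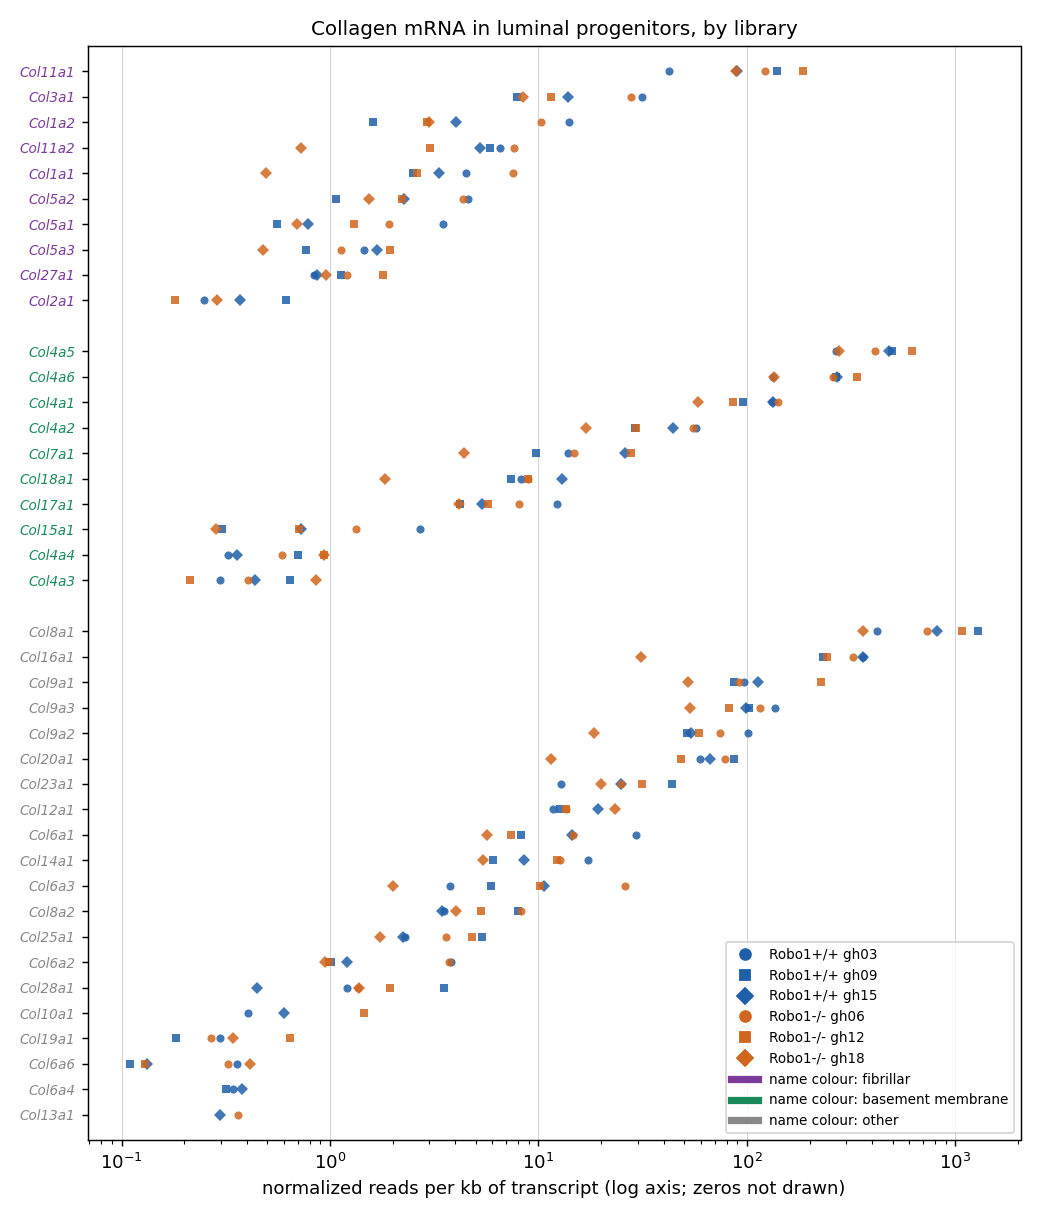
Each point is the level of 1 collagen in 1 library, in normalized reads per kb of transcript on a log axis; genes are sorted by mean value within the fibrillar, basement membrane and other groups, and values of 0 are not drawn. Col8a1, Col4a5, Col16a1 and Col4a6 stand at the right with means of 782, 426, 258 and 234 per kb, while Col1a1 has a mean of 3.5 and Col2a1 of 0.283.

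A few genes supplied most of this RNA. Col8a1, Col4a5 and Col4a6 together made up 60.0% ± 8.95 of the summed collagen value, with 44.5, 69.2 and 60.0% in wild type against 55.5, 66.0 and 64.7% in the knockouts. The 5 chains of stromal types I, III and V, Col1a1, Col1a2, Col3a1, Col5a1 and Col5a2, together made up 1.40% ± 1.01. Their share was 3.13, 0.472 and 0.920% in wild type against 2.04, 0.677 and 1.16% in the knockouts. The share of those 5 genes thus stayed under that of Col11a1 alone in 5 of the 6 libraries, gh03 being the exception.

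Among the basement membrane collagens, the highest levels belonged to the chains of the X-linked type IV pair. Col4a5 (kgCluster28356) stood at 1756, 3240 and 3156 in wild type against 2706, 4044 and 1814 in the knockouts. Col4a6 (kgCluster28355) stood at 884, 1786 and 1798 in wild type against 1721, 2235 and 893 in the knockouts. Both genes were lowest in gh03 and gh18 and highest in gh12, and the genotypes overlapped. Per kb, Col4a5 was 1.86 ± 0.168 times as high as Col4a6, and the ratio stayed between 1.60 and 2.07 over the 6 libraries.

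Col4a5 and Col4a6 lie head to head on chromosome X. In GENCODE M1 on NCBI build 37, Col4a5 runs on the plus strand from 137909928 to 138123778 and Col4a6 on the minus strand from 137599946 to 137908619, with 1308 bases between their annotated starts. The 250 bases before each start are shown because this pair moved together across the libraries, and those of Col8a1 because it had the highest level. They are RefSeq windows of build GRCm38.p6, which is a later build than that of the deposited values: chrX:141475169-141475418 on the plus strand for Col4a5, chrX:141474077-141474326 on the minus strand for Col4a6 and chr16:57754738-57754987 on the minus strand for Col8a1. Capitals mark, on either strand, the TATA box letters TATAAA, the CAAT box core CCAAT and the GC box core GGGCGG, none of which contains another.
Col4a5: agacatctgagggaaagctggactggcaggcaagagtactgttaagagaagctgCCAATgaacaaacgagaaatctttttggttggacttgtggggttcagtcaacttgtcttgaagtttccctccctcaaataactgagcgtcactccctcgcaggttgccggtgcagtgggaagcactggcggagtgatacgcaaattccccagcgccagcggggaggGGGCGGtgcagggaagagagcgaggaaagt
Col4a6: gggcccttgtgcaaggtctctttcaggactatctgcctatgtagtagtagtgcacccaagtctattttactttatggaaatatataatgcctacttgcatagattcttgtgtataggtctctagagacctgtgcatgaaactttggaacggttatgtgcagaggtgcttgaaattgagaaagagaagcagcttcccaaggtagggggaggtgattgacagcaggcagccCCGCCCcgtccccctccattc
Col8a1: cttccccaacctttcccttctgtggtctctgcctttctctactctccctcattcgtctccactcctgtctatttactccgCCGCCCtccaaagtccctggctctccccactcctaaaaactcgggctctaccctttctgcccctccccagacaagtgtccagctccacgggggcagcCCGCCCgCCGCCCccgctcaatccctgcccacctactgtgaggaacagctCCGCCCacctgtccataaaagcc
GGGCGG occurred 4 times before Col8a1, and 1 time before each of Col4a5 and Col4a6. CCAAT occurred 1 time before Col4a5. TATAAA occurred in none of the 3 windows. Of 32851 RefSeq windows of this length, 12.4% held TATAAA, 33.8% held CCAAT and 32.7% held GGGCGG on either strand. For the collagen genes, 36 windows of 33 genes were in that table, and 5, 13 and 21 of these held the same motifs. A match of letters is a description and not a binding site.

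The other type IV chains were lower. Col4a1 stood at 875, 632 and 884 in wild type against 933, 570 and 384 in the knockouts. Its neighbor Col4a2 stood at 366, 187 and 284 in wild type against 356, 189 and 109 in the knockouts. Both were lowest in gh18. The annotated starts of these 2 genes on chromosome 8 overlap by 22 bases, and Col4a1 was 2.93 ± 0.419 times as high as Col4a2 per kb, with a range from 2.33 to 3.42. Col4a1 and Col4a2 are the chains of the type IV trimer found in nearly all basement membranes. Here Col4a5 was at 426 ± 136 and Col4a1 at 108 ± 33.1 reads per kb (SD, n = 6), and the lowest library for Col4a5, at 269, was above the highest for Col4a1, at 141. Col4a3 and Col4a4, the chains known from the kidney filter, stayed between 1.83 and 7.33 in every library.

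The remaining basement membrane members were those of anchoring structures and of the membrane's edge. Col7a1, which forms anchoring fibrils, had values of 129, 90.1 and 242 in wild type against 137, 256 and 40.9 in the knockouts. Col17a1, the transmembrane collagen of hemidesmosomes, had values of 68.7, 23.5 and 30.02 in wild type against 44.9, 32.1 and 23.4 in the knockouts. Col18a1, the precursor of endostatin, had values of 52.2, 47.0 and 82.6 in wild type against 56.4, 56.8 and 11.7 in the knockouts. Col7a1 and Col18a1 were lowest in gh18, while Col17a1 was highest in gh03. Col15a1 ranged from 1.46 to 14.0 and was also highest in gh03.

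In the group of other collagens, Col8a1 (kgCluster9686, chromosome 16 from 57624371 to 57754850 in build 37) had the highest level of all collagens per kb in each of the 6 libraries. Its 6 libraries gave 2150, 6573 and 4163 in wild type against 3730, 5500 and 1849 in the knockouts. The 2 lowest libraries, gh03 and gh18, were of different genotypes. Its partner chain Col8a2 ranged from 15.0 to 35.7, so that Col8a1 was between 88.7 and 235 times as high per kb.

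Fibril-associated collagens came next. Col16a1 (kgCluster18059, chromosome 4 from 129725084 to 129776527) stood at 1874, 1209 and 1879 in wild type against 1686, 1263 and 162 in the knockouts. Only gh18 was far from the others. The 3 chains of type IX collagen were all read in every library. Col9a1 stood at 370, 332 and 432 in wild type against 352, 867 and 200 in the knockouts. Col9a2 stood at 296, 150 and 159 in wild type against 218, 172 and 54.0 in the knockouts. Col9a3 stood at 416, 314 and 301 in wild type against 352, 251 and 163 in the knockouts. All 3 were lowest in gh18, and Col9a1 was highest in gh12. The type IX genes together took 6.69% ± 1.84 of the summed collagen value. In cartilage, type IX collagen decorates fibrils of types II and XI. Here Col2a1, the type II chain, was at 3.14 or less in every library and at 0 in gh06.

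Other fibril-associated members were lower. Col20a1 stood at 249, 362 and 278 in wild type against 329, 202 and 48.2 in the knockouts. Col12a1 stood at 135, 146 and 221 in wild type against 157, 156 and 268 in the knockouts. Col14a1 stood at 112, 39.2 and 55.4 in wild type against 81.7, 79.7 and 35.02 in the knockouts. Col20a1 and Col14a1 were lowest in gh18, whereas Col12a1 was highest there. Col23a1, a transmembrane collagen, had values of 72.5, 248 and 142 in wild type against 142, 179 and 112 in the knockouts, lowest in gh03.

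The type VI chains, which form beaded filaments in interstitial matrix, did not all keep to 1 pattern. Col6a1 stood at 121, 33.7 and 59.1 in wild type against 59.9, 30.2 and 23.4 in the knockouts. Col6a3 stood at 33.1, 51.7 and 92.9 in wild type against 229, 88.9 and 17.5 in the knockouts. Col6a1 was highest in gh03 and Col6a3 in gh06, and the ratio of Col6a3 to Col6a1 per kb ranged from 0.128 to 1.79. Col6a2 ranked the 6 libraries in the same order as Col6a1, with 17.8, 4.70 and 5.63 in wild type against 17.3, 4.58 and 4.38 in the knockouts. The low members of the group were Col25a1, from 11.7 to 36.1, Col28a1, from 1.88 to 14.9, and Col10a1, Col13a1, Col19a1, Col6a4 and Col6a6, each at 4.58 or less. Col6a4 alone did not overlap between genotypes, with 2.54, 2.35 and 2.81 in Robo1+/+ and 0 in each Robo1-/- library. These are at most 3 reads a library and 8 reads in all, at or under the 3 reads taken as the smallest number detected, and the gene was not tested.

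In the fibrillar group, the leading gene was Col11a1 (kgCluster16548, chromosome 3 from 113733458 to 113923636), a chain of the minor fibril type XI. It stood at 324, 1071 and 690 in wild type against 933, 1424 and 680 in the knockouts, lowest in gh03 and highest in gh12. Its partner Col11a2 had values between 4.38 and 46.0, and per kb Col11a1 was between 6.49 and 122 times as high. Col11a1 made up 6.32% ± 2.36 of the summed collagen value, against 8.07% for the whole fibrillar group.

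The fibrillar collagens of stroma were far below this. Col3a1 (kgCluster238) stood at 176, 43.9 and 76.9 in wild type against 154, 64.1 and 46.7 in the knockouts. Col1a2 (kgCluster20232) stood at 75.1, 8.62 and 21.6 in wild type against 55.2, 15.6 and 16.1 in the knockouts. In both genes gh03 and gh06, of opposite genotype, were the 2 highest libraries, and gh09 was the lowest. Col1a1, the other type I chain, ranged from 2.92 to 44.9, Col5a2 from 7.05 to 30.5 and Col5a1 from 4.70 to 29.3. The type V chain Col5a3, from 2.92 to 11.9, and Col27a1, from 6.36 to 13.7, were lower still and were not tested. The lowest Col1a1 value, in gh18, stood for 2 reads. The 250 bases before the starts of Col3a1 and Col1a2 are shown as the pair of stromal chains with the most reads per kb, whose order over the libraries was nearly the same. They lie at chr1:45311288-45311537 and chr6:4505368-4505617 of GRCm38.p6, both on the plus strand, with the same letters in capitals.
Col3a1: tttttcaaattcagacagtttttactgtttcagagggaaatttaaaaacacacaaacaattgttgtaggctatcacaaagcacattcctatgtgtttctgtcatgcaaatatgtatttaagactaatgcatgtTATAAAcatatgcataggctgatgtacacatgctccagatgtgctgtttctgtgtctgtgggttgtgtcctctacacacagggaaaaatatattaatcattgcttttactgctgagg
Col1a2: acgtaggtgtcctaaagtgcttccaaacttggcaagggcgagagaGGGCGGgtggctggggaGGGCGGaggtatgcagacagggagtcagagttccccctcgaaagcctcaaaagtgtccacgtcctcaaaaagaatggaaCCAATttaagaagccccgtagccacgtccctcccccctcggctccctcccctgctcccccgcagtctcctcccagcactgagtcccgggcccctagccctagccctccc
TATAAA occurred 1 time before Col3a1, where CCAAT and GGGCGG did not occur. Before Col1a2, CCAAT occurred 1 time and GGGCGG 2 times. GC made up 35.2% of the window of Col3a1 and 62.0% of that of Col1a2.

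Which collagens varied with other cell types was read from the libraries themselves. Between the Robo1+/+ libraries gh03 and gh09, 4 of the 7 tested fibrillar collagens were at least 3-fold higher in gh03: Col1a2 by 8.71-fold, Col5a1 by 6.23-fold, Col5a2 by 4.33-fold and Col3a1 by 4.0-fold. Of the 13 tested other collagens, 1 passed that mark, Col6a1 with 3.59-fold. None of the 7 tested basement membrane collagens did, the nearest being Col17a1 with 2.92-fold. Among collagens too low to be tested, Col15a1 was 8.92-fold and Col6a2 3.79-fold higher in gh03, and Col6a6, at 3.26-fold, was under 3 reads in both libraries. Over all tested genes 243 passed it, or 1.77%. Several abundant collagens were lower in gh03: Col8a1 was at 0.327, Col11a1 at 0.303, Col4a5 at 0.542 and Col4a6 at 0.495 times the gh09 value. Col16a1 and Col9a1, which also rank among the 6 highest per kb, were at 1.55 and 1.11 times it. These ratios compare 1 library with 1 other and carry no test, and this pair of libraries was chosen after their values were seen.

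Basal cells, which the study sorted apart as CD29-high, were read from 10 markers. The sum of these myoepithelial genes was 2548, 907 and 1564 in wild type against 1864, 1080.0 and 1198 in the knockouts, and by this sum the 6 libraries ranked in the same order as by Col1a2. Col3a1 differed from that order in placing gh12 above gh18, and Col1a1 was highest in gh06 and lowest in gh18. In gh03, 5 of those 10 markers were at least 3-fold above gh09, among them Krt14 with 407 against 84.7 and Acta2 with 508 against 129, while Trp63 was at 0.839 times the gh09 value. All 10 basal markers were read in every library. Oxtr had the highest mean value and was highest in gh18, and Tagln had the highest level per kb, at 179. In gh18, Oxtr supplied 512 of the sum of 1198, so the place of gh18 in the order by sum depended on Oxtr. Krt5, Krt14, Krt17 and Tagln were lowest in gh18, unlike Col1a2. Acta2, Myh11, Cnn1, Mylk and Oxtr were lowest in gh09, and Trp63 in gh03. The fibroblast marker Lum followed the same order as Col1a2, with 22.9, 1.57 and 7.5 in wild type against 11.5, 2.75 and 7.30 in the knockouts. The list of 10 fibroblast markers as a whole did not: its sum ranged from 1305 to 1767 in wild type, against 729 to 3280 in the knockouts, was highest in gh18, and was led by Postn with values from 270 to 2543. Of the 6 tested fibroblast markers, 0 were 3-fold higher in gh03 than in gh09, the nearest being Dpt with 2.97-fold. Among those too low to be tested, Lum was at 14.6, Mfap5 at 1.95 and Fbln1 at 0.902 times the gh09 value. For the 6 tested fibril partners listed further below, this ratio was 15.2 for Bgn, 2.44 for Matn2 and 1.56 for Tnc. It was 1.25 for Fn1, 0.594 for Dcn and 0.0898 for Tnxb. The mark was also passed by the mature luminal marker Tnfsf11, with 8.34-fold, and the adipocyte marker Lpl, with 5.54-fold. The pericyte marker Rgs5 was at 2.80-fold, and no other tested marker outside the basal list passed. Among the other collagen enzymes and partners listed below, Pcolce2 passed with 10.3-fold, Sparc with 6.59-fold and Mmp2 with 4.33-fold. The remaining tested genes of those lists did not, and Pcolce was at 0.0481 times the gh09 value.

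**Figure D2:**
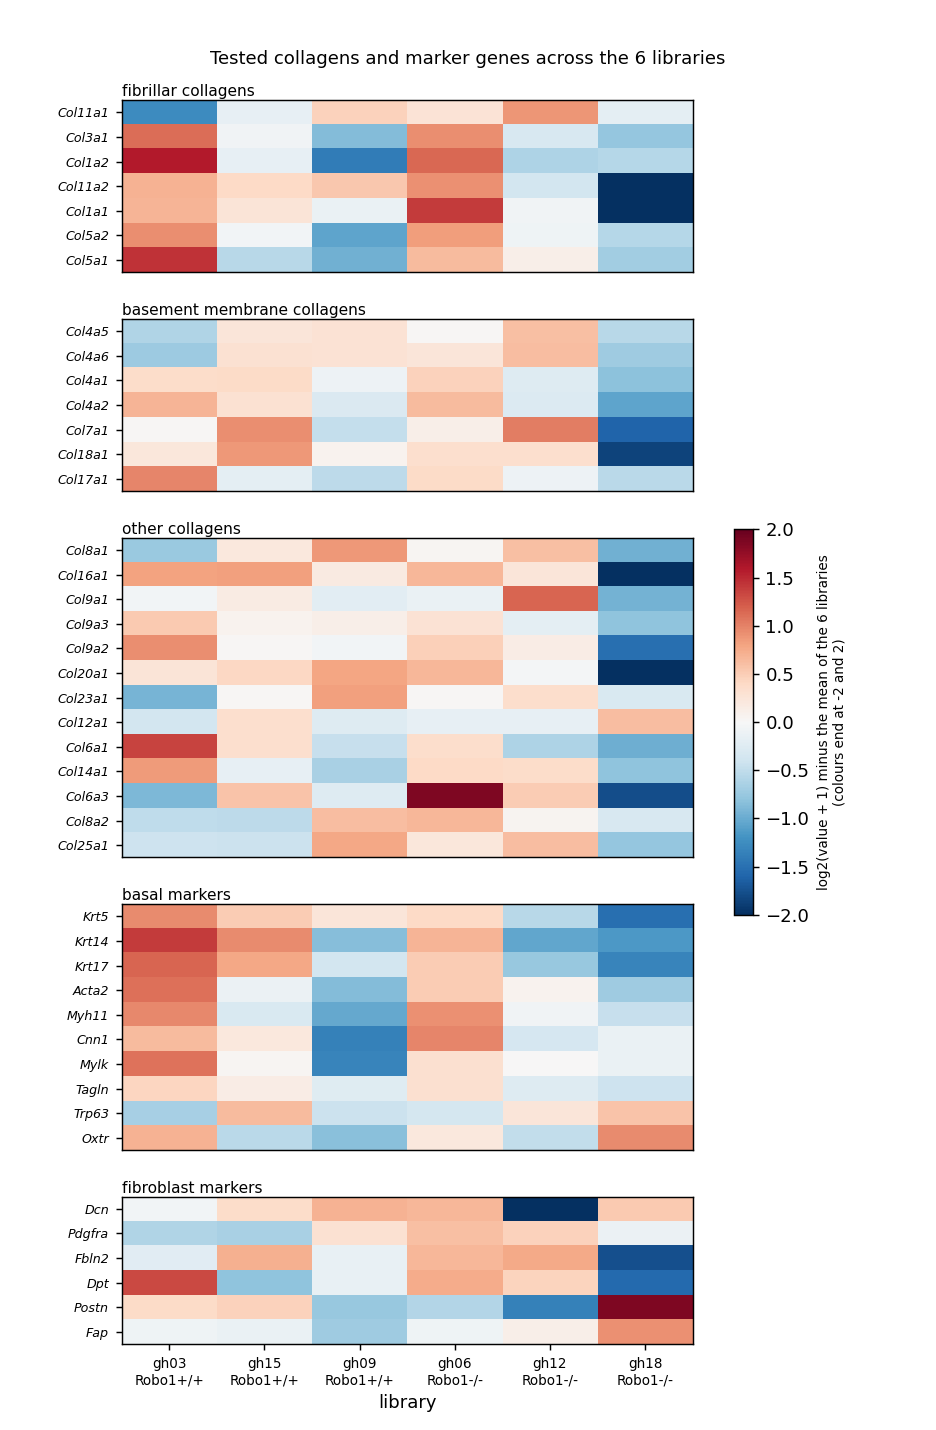
Colors give log2(value + 1) minus the mean of the 6 libraries for the 27 tested collagens and for tested basal and fibroblast markers, with 1 column per library and the 3 Robo1+/+ libraries on the left. Col1a2, Col3a1, Col5a1 and Col5a2 are red in gh03 and gh06, like the basal markers Acta2, Myh11 and Krt14 and the fibroblast marker Dpt. Not all basal markers share this, as Trp63 is lowest in gh03 and Oxtr is highest in gh18. Col8a1, Col4a5, Col4a6 and Col11a1 are blue in gh03.

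Some defining markers of stromal cells were near the limit of detection, while others were read in every library. The fibroblast markers Thy1 and Mfap5 stayed at 4.60 and 7.63 or less. However, 6 of the 10 fibroblast markers had at least 3 reads in every library. Among these, Dcn ranged from 88.9 to 655, Pdgfra from 55.4 to 132 and Fbln2 from 33.6 to 198. Of 8 endothelial markers, Cdh5 and Cldn5 were under 3 reads in every library and Emcn had no row, while Pecam1 ranged from 23.4 to 89.8. The list was led by Eng, and its summed value ranged from 323 to 846 in wild type, against 75.9 to 1312 in the knockouts, lowest in gh18. Pdgfrb, the receptor that defines pericytes, was at 2.35 or less, and the summed value of the 6 pericyte markers, led by Rgs5, ranged from 40.0 to 94.1 in wild type, against 31.1 to 144 in the knockouts. Adipoq and Plin1 had no row, and Lpl led the 3 adipocyte markers that had one, with sums from 71.3 to 373 in wild type, against 58.6 to 223 in the knockouts. Ptprc, the leukocyte antigen, was under 3 reads in every library, and the leukocyte sum, led by Cd68, ranged from 191 to 260 in wild type, against 97.8 to 146 in the knockouts. Cd74, of the same list, passed the looser rule described below, with 91.6, 47.8 and 133 in wild type against 27.6, 26.6 and 23.4 in the knockouts and a log2 fold change of -1.66 ± 0.44 (adjusted p = 0.86). Of 5 Schwann cell markers, Cdh19 was under 3 reads in every library, and the sum, from 1588 to 1977 in wild type, against 502 to 1681 in the knockouts, was mostly Sox10. No marker with a row was at 0 in all 6 libraries. In bulk RNA, fewer cells of a type and less RNA per cell cannot be told apart, and the part of any such cells in the collagen values was not tested.

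Collagen transcripts are rich in G and C, and gh18 was the lowest library for many of them. The median GC content of the 27 tested collagens was 56.7%, from 45.9 to 62.9%, against 50.4% over all tested genes. The lowest value of the 6 libraries was in gh18 for 17 of the 27 tested collagens (63.0%) and for 38.3% of all tested genes. By group, this held for 2 of 7 fibrillar, 5 of 7 basement membrane and 10 of 13 other collagens. The difference of gh18 from the other 5 libraries, in log2(value + 1), was -3.25 for Col16a1 (61.4% GC), -2.65 for Col11a2 (62.9% GC) and -2.57 for Col1a1 (58.9% GC), and 0.74 for Col12a1 (48.3% GC). Over the 27 genes its Spearman rho with GC content was -0.59, given as a description across genes of 1 library. Col8a1, with 46.8% GC, was also lower in gh18, by a log2 difference of -1.16.

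**Figure D3:**
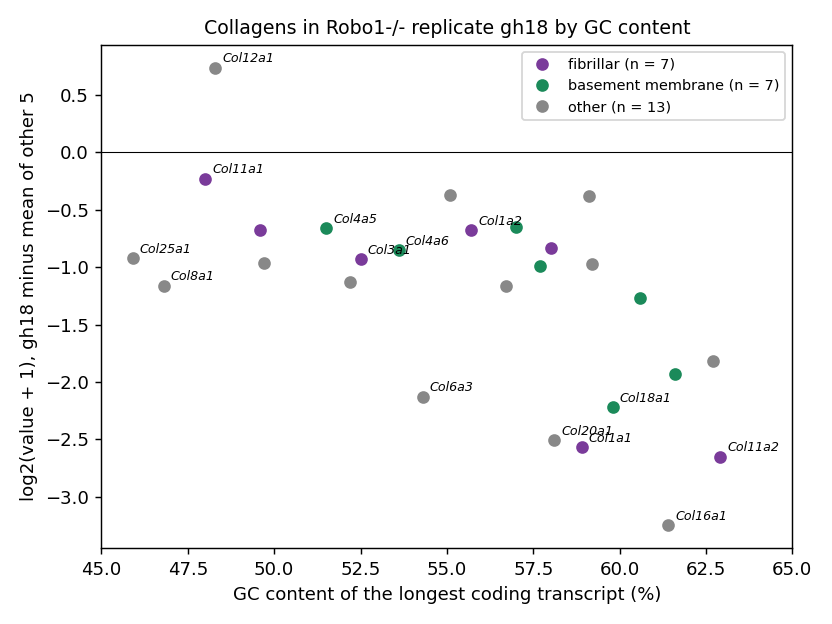
Each point is 1 of the 27 tested collagens; the horizontal axis is the GC content of its longest coding transcript in percent and the vertical axis is log2(value + 1) in gh18 minus the mean of the other 5 libraries. Points fall to the right, from 0.74 for Col12a1 to -3.25 for Col16a1, and Col12a1 is the only tested collagen above 0.

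Genotypes were then compared with limma on log2(value + 1), for 13692 genes with enough reads, among them 27 of the 40 collagens: 7 fibrillar, 7 basement membrane and 13 other. No collagen passed the test. At an adjusted p of 0.05, 0 of the 27 passed, as did 0% of all tested genes, and adjusted p ranged from 0.86 to 1.00 over the 27. At an unadjusted p of 0.05, 0 of the 27 and 231 of the 13692 genes passed. Robo1 itself had a log2 fold change of -1.39 ± 0.36 in this fit, with an unadjusted p of 0.00621 and an adjusted p of 0.86. The mutated gene was thus not called by adjusted p either. The looser rule, an unadjusted p of 0.05 with a log2 fold change beyond 1, was passed by 0 of the 27 and by 0.840% of all tested genes. DESeq2 and edgeR on the recovered reads also called 0 collagens, by adjusted or unadjusted p. Values of Robo1+/+ and Robo1-/- libraries overlapped for all 27 tested collagens, and did not overlap for 9.41% of all tested genes. P-values here measure the spread between 3 pools of animals per genotype, and an exact permutation test of 3 against 3 cannot give less than 0.1.

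Log2 fold changes, Robo1-/- over Robo1+/+, are given with their SE for the 3 collagens with the most reads per kb in each group. In the fibrillar group they were 0.64 ± 0.48 for Col11a1, -0.12 ± 0.64 for Col3a1 and -0.02 ± 0.86 for Col1a2, with adjusted p of 0.86, 0.96 and 1.00. In the basement membrane group they were 0.05 ± 0.37 for Col4a5, 0.09 ± 0.43 for Col4a6 and -0.42 ± 0.36 for Col4a1, with adjusted p of 0.97, 0.95 and 0.86. In the other group they were -0.21 ± 0.52 for Col8a1, -1.21 ± 0.84 for Col16a1 and 0.07 ± 0.52 for Col9a1, with adjusted p of 0.91, 0.86 and 0.97. Two-sided exact permutation p-values for these 9 genes ran from 0.30, for Col16a1, to 1.00. Col11a1 was at 0.17 without gh03, 0.36 without gh12 and 1.03 without gh09. The value of Col16a1 rested on gh18, since it was -0.15 without that library and -0.24 after a correction for GC content.

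Group medians changed sign with the libraries included. Of the 27 collagens, 16 had a log2 fold change below 0 and 11 above, but after the GC correction 7 were below and 20 above, and without gh18 9 were below and 18 above. The median over the 27 was -0.12, and became 0.21 with the correction and 0.24 without gh18, while the median of all tested genes was 0.00 in each case. For the basement membrane group the median was -0.32, 0.32 with the correction and 0.05 without gh18. For the fibrillar group these medians were -0.02, 0.21 and 0.39, and for the other group -0.03, 0.09 and 0.22. Some other libraries moved the fibrillar median at least as far as gh18 did: it was 0.41 without gh03, -0.58 without gh09 and -0.60 without gh06. The median of the other group was -0.50 without gh12. The basement membrane median stayed below 0 when any library but gh18 was left out, from -0.58 without gh09 to -0.25 without gh03. No direction held for any group under these settings. Col6a3, singled out after its values were seen, had a log2 fold change of 0.39 ± 0.91 with all libraries and 1.38 without gh18, and its values are led by 229 in gh06.

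**Figure D4:**
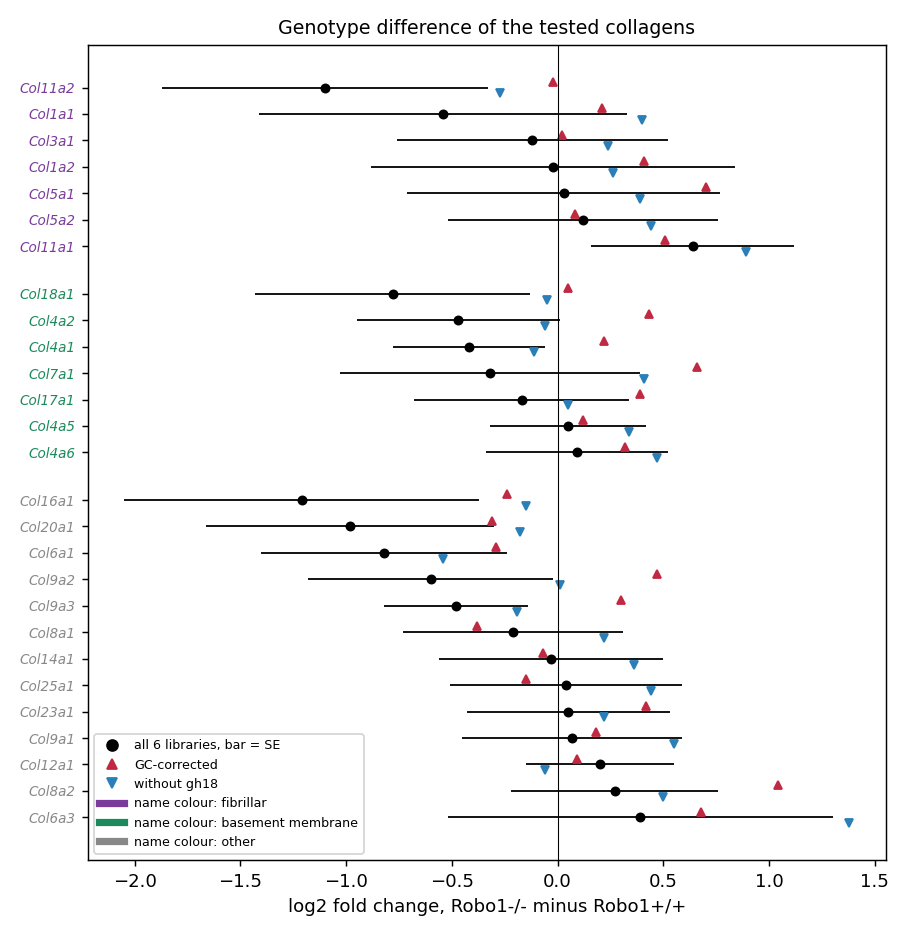
Black points with bars are log2 fold changes of the 27 tested collagens with their SE, Robo1-/- minus Robo1+/+ on log2(value + 1); red triangles are after the GC correction and blue triangles without gh18. Most low-lying points, such as Col16a1 at -1.21, Col11a2 at -1.10 and Col20a1 at -0.98, move to -0.24, -0.02 and -0.31 with the correction.

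The enzymes and partners of collagen were read from 5 lists. Of 30 genes for collagen processing, 24 were tested, and 1 passed the looser rule: P4ha2, a subunit of prolyl 4-hydroxylase, which stabilizes the collagen helix. Its 6 libraries gave 578, 248 and 311 in wild type against 288, 115 and 81.7 in the knockouts, which overlap, and its log2 fold change was -1.34 ± 0.54 with an adjusted p of 0.86. Without gh18 this was -0.96 and with the GC correction -1.06. Of 10 basement membrane partners, 9 were tested, and Hspg2, which codes for perlecan, passed the looser rule. Hspg2 stood at 481, 234 and 234 in wild type against 227, 81.5 and 46.7 in the knockouts, with a log2 fold change of -1.63 ± 0.61 with an adjusted p of 0.86. It was -1.12 without gh18 and -0.71 with the GC correction. The genotypes did not overlap for 4 of the 9 tested partners, Hspg2, Lamc1, Pxdn and Dag1, each lower in the knockouts. Over all tested genes, 9.41% did not overlap. For collagen processing it was 1 of 24 tested genes, Mia3, which was higher in the knockouts. For collagen degradation it was 1 of 6, Timp1, which was lower there. None of the tested collagen receptors and fibril partners kept the genotypes apart. Lamc1, a laminin chain, had a log2 fold change of -0.83 ± 0.30, Pxdn of -0.44 and Dag1 of -0.41. Without gh18 these 3 values were -0.71, -0.47 and -0.14, and with the GC correction -0.65, -0.28 and -0.08.

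The other 3 lists had no member past the looser rule. Of 10 collagen receptors 5 were tested, led by Itgb1, the shared beta subunit of collagen-binding integrins, and Ddr1, a collagen-binding receptor kinase. Itgb1 had values from 7258 to 8201 in wild type, against 6673 to 11579.9 in the knockouts, and Ddr1 from 1505 to 2145 and from 350.2 to 1971. Of 9 genes for collagen degradation 6 were tested, with the highest values for the protease inhibitor Timp2, from 2420 to 3554 in wild type, against 2508 to 4279 in the knockouts, and the membrane protease Mmp14, from 2697 to 3459 and from 1220 to 3776. Per kb, Mmp14 (1142) was above Timp2 (869). Of 8 fibril partners 6 were tested, led by Dcn, which codes for decorin, and by Tnc, which codes for tenascin C and ranged from 294 to 459 in wild type, against 201 to 354 in the knockouts. Dcn, also a fibroblast marker, ranged from 389 to 655 in wild type, against 88.9 to 641 in the knockouts. No tested gene of the 5 lists passed an adjusted p of 0.05. Median log2 fold changes were -0.30 for processing, -0.22 for receptors, -0.19 for degradation, -0.44 for basement membrane partners and -0.61 for fibril partners, against 0.00 over all tested genes. With the GC correction these medians became -0.06, -0.02, 0.08, -0.28 and -0.44.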

How the data were processed

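Poly(A)+ RNA of sorted luminal progenitors was measured in 3 Robo1+/+ and 3 Robo1-/- libraries, grouped by the genotype in their labels. The deposited values are a normalized signal: per the study's methods and processing notes, the authors cut reads to 75 bases, filtered out repeats with bowtie2, aligned to NCBI37/mm9 by TopHat, and divided counts per known-gene cluster by 1 size factor per library (DESeq or DESeq2). The counting tool and its use of strand are not given in the sources used here, so reads of overlapping genes cannot be told apart. Among collagens such overlaps were short, the longest being 234 exonic bases of Col9a3 with Tcfl5, and Col6a6 alone shared 75-base sequences with other genes (3.87%).

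Dividing each value by the value of 1 read gave whole reads for 100.0% of values, within 0.006 units. Between 9727191 and 17433868 reads were recovered per library. Fewer than 3 reads were taken as not detected, which covers counting error only. Log2(value + 1) was fitted with limma 3.58.1 (R 4.3.3, empirical Bayes trend, Benjamini-Hochberg adjustment over all 13692 genes kept by filterByExpr of edgeR 4.0.16). DESeq2 1.42.0 and edgeR on recovered reads, TMM scaling, other filters and pseudocounts, a lowess correction of each library on transcript GC content, and leaving out each library were alternatives. The fit was tested on simulated reads. Positions, transcript lengths and GC content are from GENCODE M1 on NCBI build 37. Promoter windows are from RefSeq on GRCm38.p6.

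Collagens with a mean value of at least 30 were to be given in every library, with fold changes for the 3 with the most reads per kb in each group and for any past the looser rule, the leading or called members of the pathway lists, and the most abundant and undetected markers. Other genes were named after their values were seen. The members, groups and lists were chosen with earlier results of these data known.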

Additional observations from a re-analysis of the deposited data

How the results depend on the processing

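No collagen passed an adjusted p of 0.05 under any alternative that was run. The number past an unadjusted p of 0.05 with a log2 fold change beyond 1 was 0 with all libraries and 0 to 2 when 1 library was left out: Col20a1 (-1.55) and Col11a2 (-1.84) without gh06, and Col6a3 (1.38) without gh18. With no filter on low values it was 1, which was Col6a4, a gene of at most 3 reads a library. The GC correction turned the log2 fold change of Col3a1 to 0.02, of Col1a2 to 0.41 and of Col4a1 to 0.22. Leaving out 1 library at a time moved Col3a1 from -0.61 to 0.41, Col1a2 from -0.72 to 0.77, Col4a5 from -0.24 to 0.34, Col4a6 from -0.25 to 0.47, Col11a1 from 0.17 to 1.03, Col8a1 from -0.64 to 0.22, Col9a1 from -0.50 to 0.55 and Col6a3 from -0.44 to 1.38. None of these was called in either direction with all libraries. The same moved the fibrillar median from -0.60 to 0.41, the basement membrane median from -0.58 to 0.05 and the median of the other group from -0.50 to 0.22. The basement membrane share was 34.9% per kb of transcript in place of 41.0% of values, and 39.8 to 42.0% when 1 library was left out. Apart from leaving out libraries, 133 further values kept their direction and side of the threshold, or moved by less than 1 SD. No paired analysis was run, because the replicate names of the 2 genotypes are not shared. Whether libraries of the 2 genotypes were matched could not be told from these names. The SE of a collagen's log2 fold change lay between 0.34 and 0.91, and 3 libraries per genotype limit which differences could be detected.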
